A study of Mus musculus with 6 samples.

Results

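The genes described here are the TFII-I family, Gtf2i, Gtf2ird1 and Gtf2ird2, together with 7 of their neighbours in the mouse counterpart of the Williams syndrome region, Ncf1, Limk1, Eif4h, Rfc2, Clip2, Baz1b and Bcl7b. They were chosen by name, and every probe annotated to 1 of these 10 symbols was taken, which gave 25 of the 45281 probes on the array. The RNA came from Wehi-231, a B lymphoma line of (BALB/c x NZB)F1 mice that was grown in DMEM with serum. Of 6 samples, 3 carried a short hairpin RNA labelled shTFII-I, named for the protein that Gtf2i encodes, and 3 carried the hairpin labelled shCT, which served as the comparison. Both groups are the same line with a hairpin, and the labels give no hairpin sequence and do not say if each replicate was a culture of its own. The p-values therefore rest on a spread between arrays that may be only technical. The arrays ask which transcripts differ in level when TFII-I is targeted.

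Williams syndrome is a human disorder caused by the loss of one copy of a block of neighbouring genes that includes the gene for TFII-I. TFII-I is a transcription factor with repeated helix-loop-helix-like domains. It binds initiator elements and E-box sequences at promoters, and in B cells it is held by Bruton's tyrosine kinase and released on receptor signalling. In mouse the block lies on chromosome 5. In the RefSeq gene order Gtf2ird2, Ncf1, Gtf2i, Gtf2ird1 and Clip2 follow each other with no other coding gene between them. Another coding gene separates Clip2 from Rfc2, which is followed by Lat2, Eif4h and Limk1, and Bcl7b and Baz1b stand side by side farther along.

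The promoters of the family are shown because these genes carry the question of the knockdown and because TFII-I is a promoter-binding protein. Each window runs from 250 bases before to 50 bases after the annotated start of the gene, in the RefSeq table of build GRCm38.p6, and is written 5′ to 3′ on the strand of the gene. Capitals mark CACGTG, an E-box that reads the same on both strands.
Gtf2i promoter, chr5:134314711-134315010, minus strand: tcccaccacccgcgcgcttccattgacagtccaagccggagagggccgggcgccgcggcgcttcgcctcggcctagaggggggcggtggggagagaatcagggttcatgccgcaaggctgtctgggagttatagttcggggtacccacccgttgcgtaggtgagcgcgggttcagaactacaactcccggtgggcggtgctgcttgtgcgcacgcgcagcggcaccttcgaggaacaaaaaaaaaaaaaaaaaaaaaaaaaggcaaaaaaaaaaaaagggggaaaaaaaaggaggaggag
Gtf2ird1 promoter, chr5:134456667-134456966, minus strand: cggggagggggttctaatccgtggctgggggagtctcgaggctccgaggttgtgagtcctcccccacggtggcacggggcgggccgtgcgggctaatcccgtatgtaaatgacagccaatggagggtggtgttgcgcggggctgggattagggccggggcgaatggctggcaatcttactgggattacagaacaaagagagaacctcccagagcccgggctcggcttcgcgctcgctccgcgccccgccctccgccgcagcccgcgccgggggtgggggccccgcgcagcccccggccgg
Gtf2ird2 promoter, chr5:134183788-134184087, plus strand: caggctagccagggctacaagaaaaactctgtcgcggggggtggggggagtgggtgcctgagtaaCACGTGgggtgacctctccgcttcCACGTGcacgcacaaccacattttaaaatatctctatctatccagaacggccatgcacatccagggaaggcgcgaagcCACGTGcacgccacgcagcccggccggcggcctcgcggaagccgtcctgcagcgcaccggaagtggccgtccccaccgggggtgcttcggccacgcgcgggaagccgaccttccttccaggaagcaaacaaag
The Gtf2ird2 window holds CACGTG 3 times, at -185, -161 and -83 bases from the start (first base of the motif), and the windows of Gtf2i and Gtf2ird1 do not hold it. Of all 32851 promoter windows of that length in the table, 7.15% hold CACGTG at least once. Windows were found for 9 of the 10 genes (2 for Limk1), with none for Rfc2. CACGTG also occurs once in the windows of Eif4h and Bcl7b. The letters AGGGGGC, from the core of the CTCF motif, were searched on both strands, overlap with no CACGTG match, and occur once, in the Baz1b window, against 10.6% of all windows. Such matches describe the sequence and do not show a bound site.

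Values are the deposited log2 intensities, whose floor, with its mode at 6.45, was taken as background. A background level of 6.61 was estimated from the values as the level that 1% of the background exceeds. On shTFII-I replicate 1, 12778 probes, or 28.22%, lay above it, and the sorted values of the arrays differ by at most 0.0012. Among markers of B cells 6 of 7 genes with a probe were above the level, among them Cd79b, Pax5 and Cd22, while Ms4a1 was not. None of 5 T cell genes with a probe was (Cd3d, Cd3e, Cd3g, Cd4 and Cd8a), and 1 of 5 myeloid (Csf1r), 1 of 3 erythroid (Klf1) and 1 of 5 fibroblast genes (Acta2) were. The mean over the B cell genes ran from 7.88 to 8.05 in the shTFII-I arrays and from 7.57 to 7.99 in the shCT arrays. Arrays of different groups correlated with a Pearson r of 0.944 to 0.98 over all probes above background, and arrays of 1 group with an r of 0.945 to 0.971.

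Of the 25 probes, 13 exceeded the background level on at least 3 arrays and were tested, and they belong to 8 of the 10 genes. No probe of Gtf2i or Baz1b did so. Of the 12 probes left out of the test, 8 were above the level on no array and 4 on a single array. With limma, 0 of the 13 passed an adjusted p of 0.05, and 0 of all 12149 probes tested did, a share of 0%. At an unadjusted p under 0.05 there was 1 of the 13, a Gtf2ird1 probe, where 6.50% of all probes were under that limit. The same probe was the 1 of 13 whose groups did not overlap, where this held for 11.4% of all probes. The 13 log2 differences (shTFII-I minus shCT) were above 0 in 7 and below 0 in 6, where 49.8% of all probes were below 0, with a median of 0.039, against a median of 0.00066 over all probes tested. An exact permutation test of 3 arrays against 3 cannot give a p below 0.1.

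**Figure D1:**
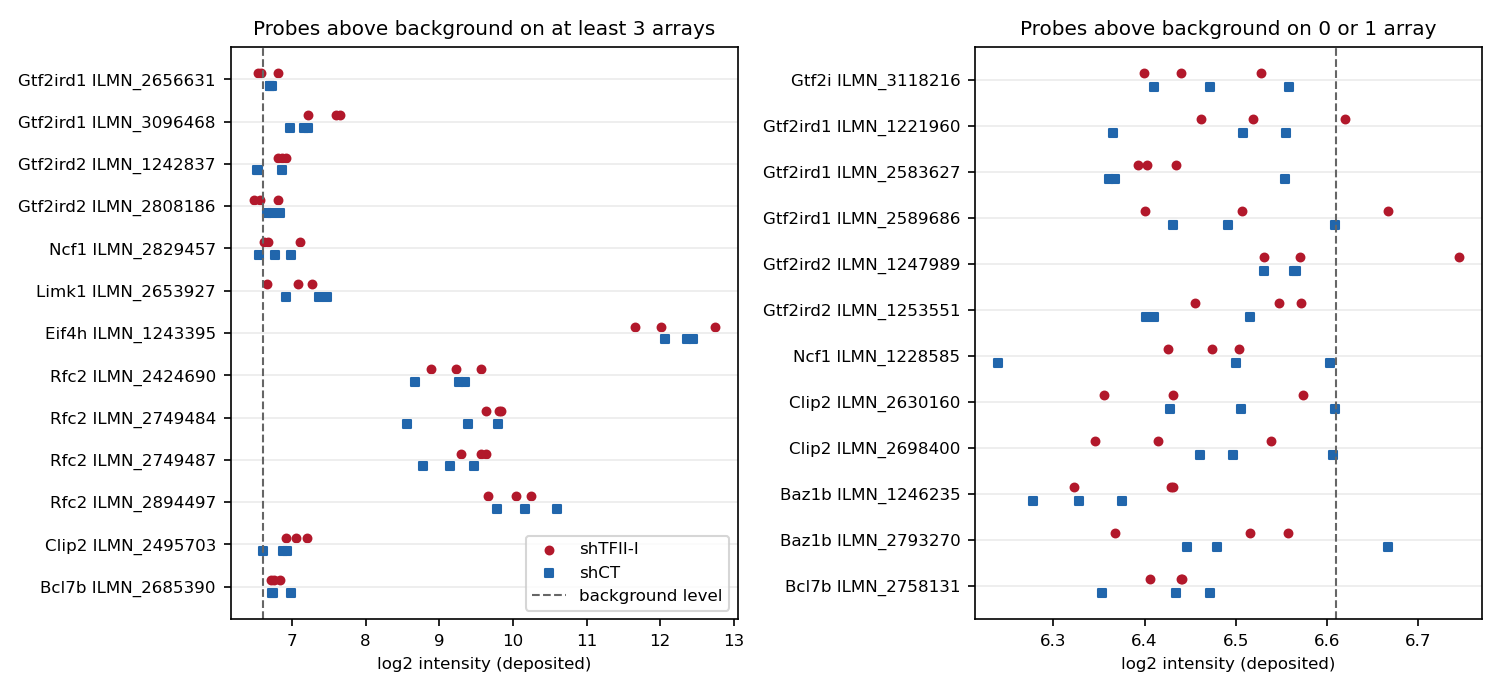
Log2 intensity of each probe of the 10 genes on each of the 6 arrays, shTFII-I as circles and shCT as squares, with the background level of 6.61 as a dashed line. The left panel holds the 13 probes above background on at least 3 arrays and the right panel, on its own scale, the 12 that were not; Gtf2i and Baz1b appear only on the right.

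Gtf2i has 1 named probe, ILMN_3118216. It read 6.40, 6.53 and 6.44 in the shTFII-I arrays, against 6.47, 6.56 and 6.41 in the shCT arrays. All 6 values lay below the background level, and the mean was 0.15 below it in shTFII-I and 0.13 below it in shCT arrays on the log2 scale. A fold is therefore not given, and the depletion of the targeted transcript cannot be checked with this probe. The probe is annotated to 1 of the 43 transcripts, 11 of them curated, that the RefSeq table lists for Gtf2i. Which of the other transcripts it would detect was not analysed here.

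Gtf2ird1, which encodes a transcription factor with the same kind of repeats, has 5 probes. On ILMN_3096468 it read 7.66, 7.22 and 7.60 in the shTFII-I arrays, against 6.97, 7.21 and 7.16 in the shCT arrays. All shTFII-I arrays lay above all shCT arrays, but the lowest of the first and the highest of the second nearly met, and the second array of each group was the one near the border. The group means were 7.49 ± 0.23 in shTFII-I and 7.12 ± 0.12 in shCT cells (SD, n = 3 each). The difference of 0.38 ± 0.15 (log2, SE), or 1.30-fold, had a 95% interval of 0.014 to 0.74 and did not pass limma's test over all probes (unadjusted p = 0.0438, adjusted p = 0.757). With each array left out in turn it stayed positive, from 0.29 to 0.51, but limma's unadjusted p was under 0.05 only without shTFII-I replicate 2 and ran from 0.0614 to 0.136 without each of the other 5 arrays. After normexp correction, which removes background from the intensities, it was 0.61 ± 0.29 (limma adjusted p = 0.742).

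The other Gtf2ird1 probes did not repeat this difference. ILMN_2656631 read 6.81, 6.57 and 6.54 in the shTFII-I arrays, against 6.71, 6.70 and 6.73 in the shCT arrays, so it was above background on 1 of 3 shTFII-I and 3 of 3 shCT arrays. Its difference was -0.07 ± 0.12, with a 95% interval from -0.35 to 0.21 (limma adjusted p = 0.976). The remaining 3 probes were above background on at most 1 array and differed by 0.058, -0.018 and 0.015. Probes that share an annotated transcript with the probe that separated the groups were not alike, since ILMN_2589686, annotated to the same transcript, exceeded background on 1 array. The mean of both measured probes, taken per array, differed by 0.15 ± 0.12 (limma adjusted p = 0.882).

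Gtf2ird2 encodes a family member whose second part derives from a transposase, and 2 of its 4 probes were tested. ILMN_1242837 read 6.86, 6.91 and 6.81 in the shTFII-I arrays, against 6.54, 6.86 and 6.52 in the shCT arrays. All 3 shTFII-I arrays exceeded background and 1 shCT array did, the second, which lay within the range of the shTFII-I arrays. The difference was 0.22 ± 0.13 (95% interval -0.093 to 0.53, limma adjusted p = 0.844), 0.33 without shCT replicate 2 and 0.55 ± 0.29 after normexp. The other tested probe, ILMN_2808186, went the other way. It read 6.81, 6.48 and 6.57 in the shTFII-I arrays, against 6.72, 6.66 and 6.84 in the shCT arrays, with 1 and 3 arrays above background. Its difference was -0.12 ± 0.13 (95% interval -0.43 to 0.19). Both probes are annotated to the same transcript, and their mean per array differed by 0.05 ± 0.10. Of the other probes, ILMN_1247989 reached 6.74 on the third shTFII-I array only and differed by 0.062, and ILMN_1253551 was below background throughout and differed by 0.082.

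**Figure D2:**
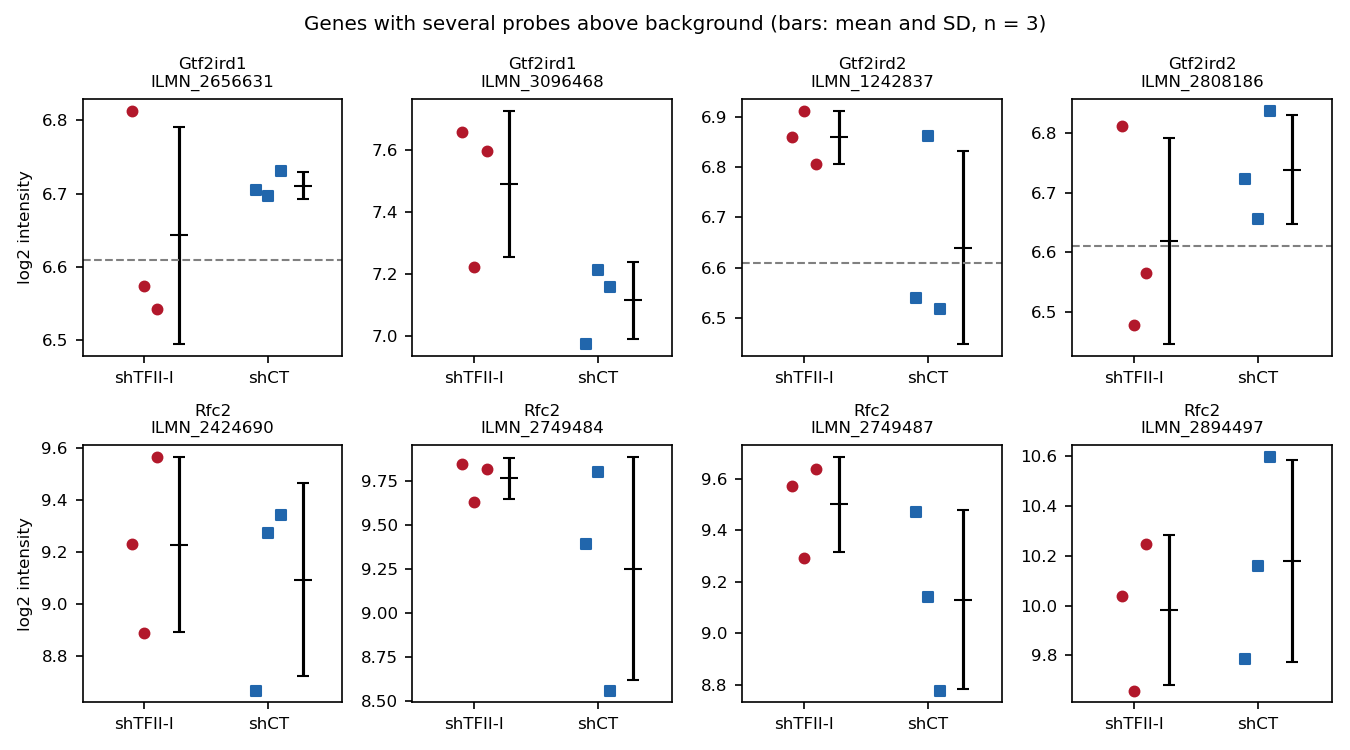
Log2 intensity on each array for the genes with several probes above background, Gtf2ird1, Gtf2ird2 and Rfc2, with shTFII-I on the left and shCT on the right of each panel and the mean and SD of 3 arrays beside the points. Each panel has its own scale, and a dashed line marks the background level where it is near. Probes of 1 gene point in different directions in all 3 genes.

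Rfc2, a subunit of the clamp loader that places PCNA on DNA for replication, has 4 probes, all annotated to 1 transcript and all above background on every array. ILMN_2749484 read 9.84, 9.63 and 9.82 in the shTFII-I arrays, against 9.39, 9.80 and 8.56 in the shCT arrays. The third shCT array was the low one and the second overlapped the shTFII-I arrays. The difference was 0.51 ± 0.30 (95% interval -0.19 to 1.22, limma adjusted p = 0.842), and 0.17 without shCT replicate 3. ILMN_2749487 read 9.57, 9.29 and 9.64 in the shTFII-I arrays, against 9.47, 9.14 and 8.78 in the shCT arrays. Here too the third shCT array was lowest and the groups overlapped, with a difference of 0.37 ± 0.20 (95% interval -0.099 to 0.84), and 0.19 without shCT replicate 3.

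The other Rfc2 probes ordered the arrays differently. ILMN_2424690 read 9.23, 8.89 and 9.56 in the shTFII-I arrays, against 8.66, 9.27 and 9.34 in the shCT arrays, with the first shCT array lowest. Its difference was 0.13 ± 0.24, and -0.08 without shCT replicate 1. ILMN_2894497 read 10.04, 9.66 and 10.25 in the shTFII-I arrays, against 9.79, 10.16 and 10.60 in the shCT arrays. On this probe the third shCT array was the highest of all 6, and the difference was -0.20 ± 0.24 (limma adjusted p = 0.972). The mean of the 4 probes was 9.67, 9.37 and 9.82 in the shTFII-I arrays, against 9.33, 9.59 and 9.32 in the shCT arrays, a difference of 0.20 ± 0.15 (95% interval -0.15 to 0.56, limma adjusted p = 0.879).

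Eif4h stimulates the RNA helicase eIF4A during translation initiation, and its only probe, ILMN_1243395, was far above background, by 5.53 in shTFII-I and 5.69 in shCT arrays on the log2 scale. It read 12.01, 12.74 and 11.66 in the shTFII-I arrays, against 12.07, 12.37 and 12.45 in the shCT arrays. The shTFII-I arrays held both the lowest and the highest value and enclosed the shCT arrays. The difference was -0.16 ± 0.27 (95% interval -0.81 to 0.49, limma adjusted p = 0.976). Its sign rested on the third shTFII-I array, without which it was 0.078. At this level background correction hardly moved the value, which was -0.16 after normexp as well.

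Limk1, the kinase that phosphorylates the actin-severing protein cofilin, read 7.27, 6.66 and 7.08 on its only probe, ILMN_2653927, in the shTFII-I arrays, against 7.47, 7.36 and 6.91 in the shCT arrays. The second shTFII-I array was close to background, and the groups overlapped. The difference was -0.25 ± 0.21 (95% interval -0.75 to 0.25, limma adjusted p = 0.934). It was -0.077 without shTFII-I replicate 2, -0.42 without shCT replicate 3 and -0.46 ± 0.35 after normexp.

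Clip2 binds the growing ends of microtubules and is best known from brain. Of its 3 probes, ILMN_2495703 was above background on all arrays. It read 7.05, 6.91 and 7.21 in the shTFII-I arrays, against 6.61, 6.88 and 6.93 in the shCT arrays, and the groups overlapped between the second shTFII-I and the third shCT array only. The difference was 0.25 ± 0.14 (95% interval -0.08 to 0.58, limma adjusted p = 0.832), 0.15 without shCT replicate 1, whose value of 6.61 lay at the background level, and 0.52 ± 0.29 after normexp. The other 2 probes, annotated to another transcript of the gene, were below background on every array and differed by -0.06 and -0.089.

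Ncf1 encodes the subunit that organises the NADPH oxidase of phagocytes and B cells. ILMN_2829457 read 6.67, 7.11 and 6.62 in the shTFII-I arrays, against 6.98, 6.77 and 6.55 in the shCT arrays. Each group spread over a wider range than the distance between their means, and the difference was 0.039 ± 0.18 (95% interval -0.39 to 0.47, limma adjusted p = 0.989). It ran from -0.12 to 0.15 with 1 array left out. The second probe, annotated to the same transcript, was below background on all arrays and differed by 0.02.

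The last pair of neighbours, Bcl7b and Baz1b, take part in chromatin remodelling, Bcl7b as a subunit of BAF complexes and Baz1b as a partner of the ISWI motor Smarca5. Bcl7b read 6.76, 6.84 and 6.71 on ILMN_2685390 in the shTFII-I arrays, against 6.99, 6.73 and 6.75 in the shCT arrays. All 6 values lay a little above background, and the first shCT array was the highest. The difference was -0.05 ± 0.12 (95% interval -0.34 to 0.24, limma adjusted p = 0.982), and 0.033 without shCT replicate 1. The second Bcl7b probe, ILMN_2758131, was below background on every array and differed by 0.0095.

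Baz1b was not measurable on either of its probes. ILMN_2793270 read 6.52, 6.56 and 6.37 in the shTFII-I arrays, against 6.45, 6.48 and 6.67 in the shCT arrays, with the third shCT array alone above the level. ILMN_1246235 was below the level throughout, between 6.28 and 6.43. Their differences were -0.051 and 0.067, and the 12 untested probes of all genes together differed by between -0.089 and 0.082.

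**Figure D3:**
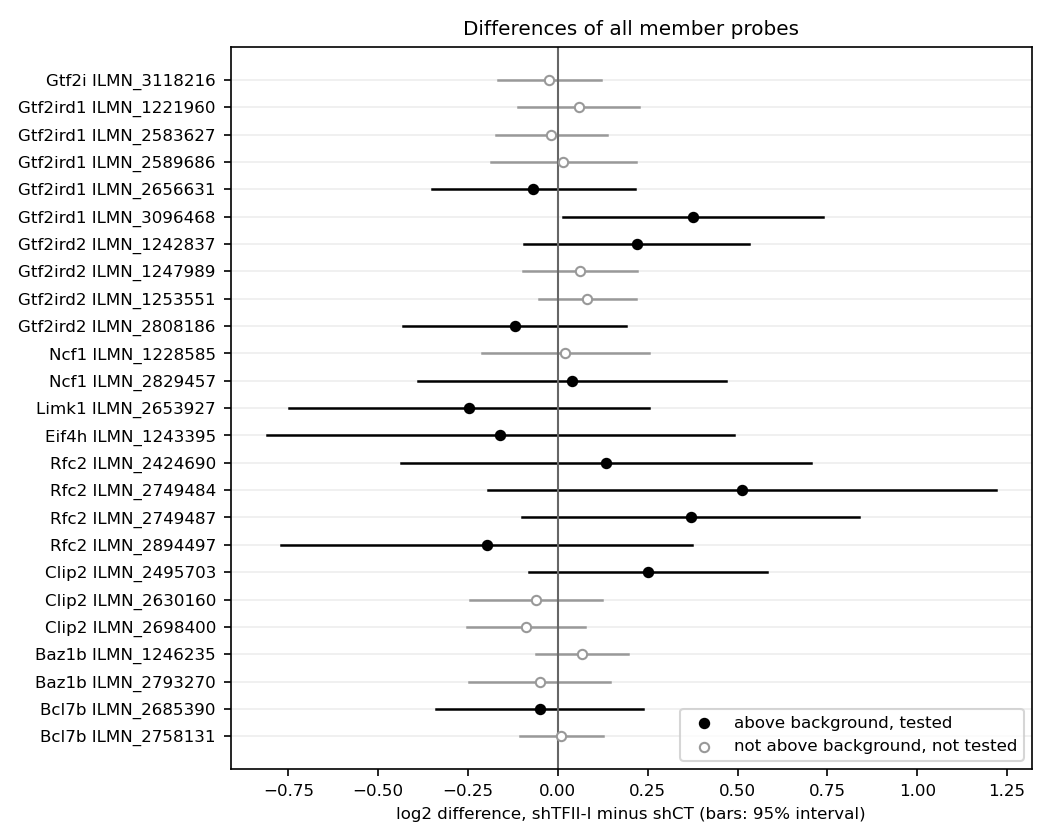
Log2 difference, shTFII-I minus shCT, of every probe of the 10 genes with its 95% interval; filled points were tested and open points were not above background. The Gtf2ird1 probe ILMN_3096468 at 0.38 is the tested probe whose interval does not include 0 before adjustment.

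The intervals show what these arrays could separate. In the deposited values 12 of the 13 tested probes had a 95% interval that lay within a log2 difference of 1 in either direction, the exception being the Rfc2 probe ILMN_2749484, whose upper end was 1.22. After normexp this held for 7 of the 13. The differences of 8 probes were then more than 1.5 times as large, by up to 2.81 times. Those of Rfc2 and Eif4h, which lie well above background, moved least, although the SE of the Rfc2 probe ILMN_2749487 was 0.29 after normexp, against 0.20 in the deposited values, and its interval reached 1.02. None of the 13 passed limma's test after normexp.

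**Figure D4:**
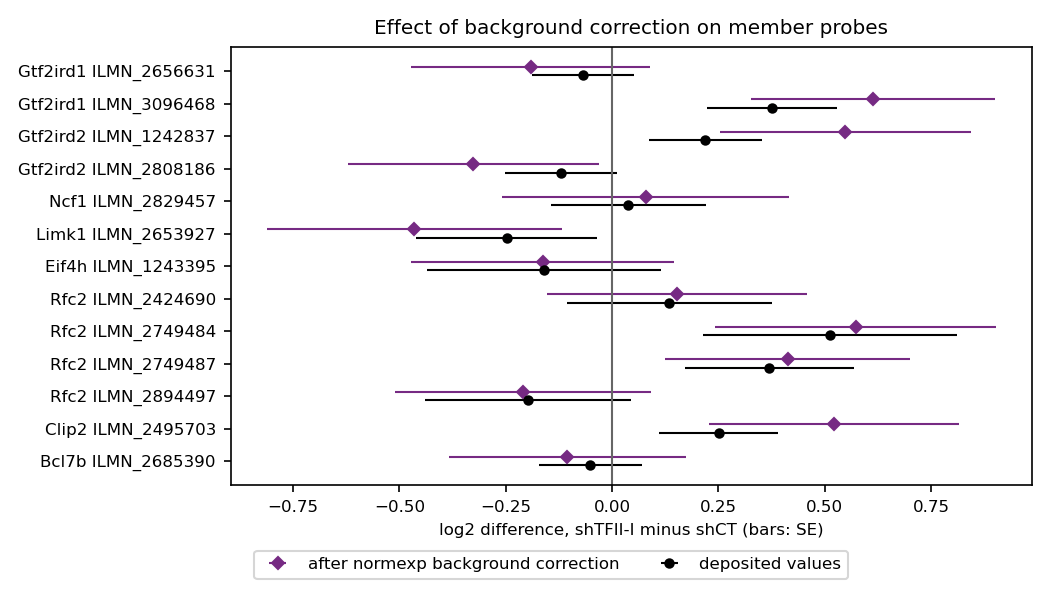
Log2 difference, shTFII-I minus shCT, with its SE for the 13 tested probes, from the deposited values (circles) and after normexp background correction (diamonds). Differences of dim probes such as Gtf2ird2 ILMN_1242837 widen from 0.22 to 0.55 while that of Eif4h stays at -0.16.

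Across the rest of the Williams region, 20 of 21 further genes had a probe and 11 had at least 1 probe above background, 18 probes in all. Of these 18 probes 4 were above 0 and 14 below 0, with a median log2 difference of -0.13, where 49.8% of all tested probes were below 0. None passed limma's test, and 2 of the 18 had an unadjusted p under 0.05, where 6.50% of all probes had. The groups did not overlap in 3 of the 18 probes, each lower in shTFII-I cells, where 5.85% of all probes did so in that direction. These were probes of Bud23 and Nsun5 only. Bud23, an RNA methyltransferase of the small ribosomal subunit, differed by -0.37 ± 0.11 on ILMN_1252719 (limma adjusted p = 0.637), but its other probes differed by -0.29 and 0.016. Nsun5, which methylates RNA of the large subunit, differed by -0.31 ± 0.12 on ILMN_1245761 (limma adjusted p = 0.745). Its groups did not overlap on this probe or on ILMN_2796028, which differed by -0.23 ± 0.12. Nsun5 was below 0 on all 5 probes, which share their samples and are no independent evidence. The probes of the 10 genes described above were more evenly split, and whether the gene sets differ was not tested.

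**Figure D5:**
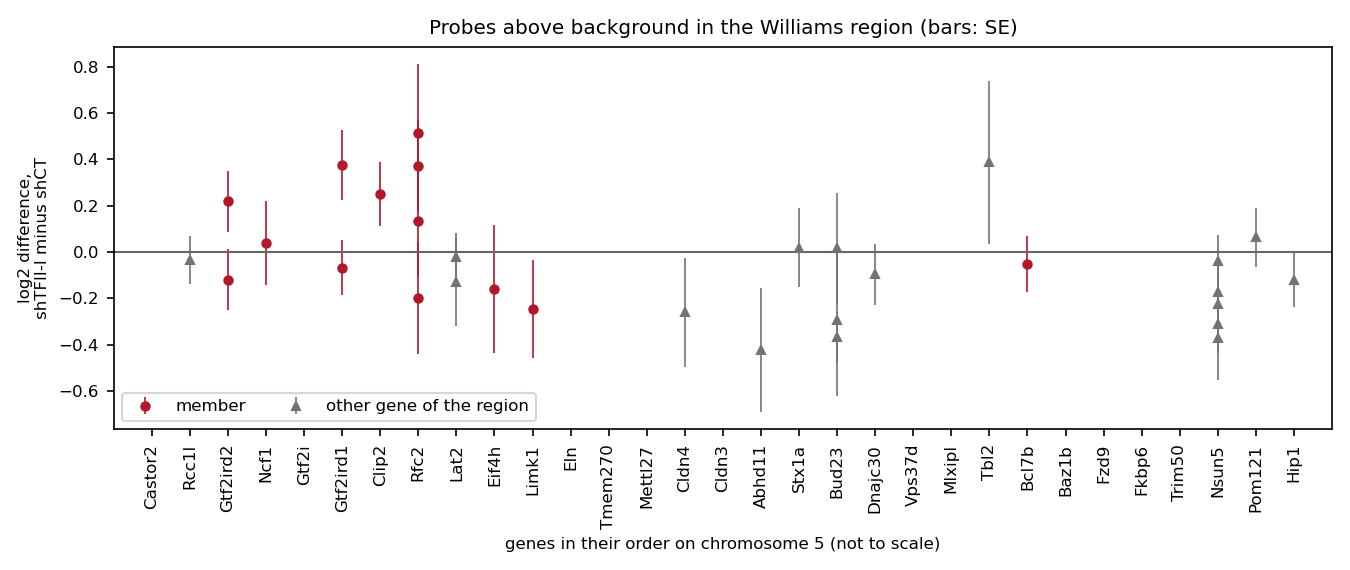
Log2 difference, shTFII-I minus shCT, with its SE for every probe above background in the region, with genes in their order on chromosome 5 (not to scale); circles stand for the TFII-I family and the 7 neighbours, triangles for the other genes. Genes with no point, among them Gtf2i and Baz1b, had no probe above background.

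Partners of the neighbours in their complexes and pathways gave 0 probes past limma's adjusted threshold in any of 7 lists. Of their 76 tested probes 7 had an unadjusted p under 0.05, 3 above and 4 below 0, where 6.50% of all probes had. The 4 below 0 were all in the list of BAF genes. In the list of NADPH oxidase subunits 3 probes were above 0 and 1 below, with Rac2, its GTPase, at 0.35 ± 0.13 and Cyba at 0.20 ± 0.23. In the cofilin pathway around Limk1 3 were above 0 and 6 below, with Cfl1, cofilin itself, at 0.50 ± 0.16 and the phosphatase Ssh2 at 0.13 ± 0.12. The Ssh2 probe lay near background, above it on 2 of 3 shTFII-I arrays and 1 of 3 shCT arrays. For eIF4A and its partners the split was 3 to 5 and for the clamp loader with PCNA likewise 3 to 5. In the first of these Eif4b differed by -0.20 ± 0.15, and in the second Atad5, which unloads PCNA, by -0.31 ± 0.24 and Rfc3 by 0.14 ± 0.11. Microtubule plus-end proteins were split 4 to 5, with Clip1 at 0.17 ± 0.14 on ILMN_2473620 and -0.11 and -0.085 on its other probes.

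The lists around the chromatin remodellers had the probes with the smallest p. Of 10 ISWI genes only 4 had a probe above background, and the motor Smarca5 was not among them. Of their probes 6 were above 0 and 1 below. The histone-fold protein Pole3 was at 0.85 ± 0.22 on ILMN_2840296 (limma adjusted p = 0.578), but at 0.21 and -0.13 on its other probes. Among BAF genes 12 probes were above 0 and 19 below, with a median of -0.027. Of these 31 probes, 5 had groups that did not overlap with shTFII-I lower, most of them probes of Actb, and 1 with shTFII-I higher. Over all probes 11.4% did not overlap, and 5.85% did so with shTFII-I lower. Bcl7c, the paralogue of Bcl7b, differed by -0.51 ± 0.14 on ILMN_1216273 (limma adjusted p = 0.606) and by 0.0076 on its second probe. Actb, actin, which is also a BAF subunit, was below 0 on all 5 probes, which share their samples and are no independent evidence. On its brightest probe, ILMN_2698799, Actb averaged 13.11 ± 0.14 in shTFII-I and 13.45 ± 0.19 in shCT cells (SD, n = 3 each). The difference was -0.34 ± 0.14, and the groups did not overlap (limma adjusted p = 0.767). On ILMN_1377923, where the groups did not overlap either, it was -1.04 ± 0.47 (limma adjusted p = 0.776), with the first shTFII-I array at 9.96 and the other 2 at 11.59 and 11.89. ILMN_2846865 was above background on 3 of 3 shCT arrays but on 1 of 3 shTFII-I arrays, so that its difference of -0.47 is set against a group at background. The remaining Actb probes differed by -0.14 and -0.065, with overlapping groups. The first of them, ILMN_2617433, was also bright, with a mean of 11.61 in shTFII-I and 11.75 in shCT cells. The second, ILMN_2588055, was above background on only 3 of 6 arrays.

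Genes whose values ran most like those of the family over the 6 arrays were found by Pearson's r, as a description. For Gtf2ird1 ILMN_3096468 they were Mtmr14, Thnsl1 and Akap12, with r of 0.991, 0.986 and 0.983, and for its probe ILMN_2656631 Gid8, Nudt4 and Klhl12 (0.994, 0.991 and 0.986). For Gtf2ird2 ILMN_1242837 they were Zfp28, Pmm2 and Tbc1d10b (0.992, 0.986 and 0.985), and for ILMN_2808186 Tyro3, Gnaq and Tra2a (0.99, 0.986 and 0.985). With 6 arrays between 68 and 124 of the 12149 tested probes, the probe itself counted, exceeded an r of 0.9 with any 1 of these probes. The closest genes of 2 probes of 1 gene had none in common, which says little, since only the few named here were kept for each probe. ILMN_2656631, ILMN_1242837 and ILMN_2808186 averaged only 0.067, 0.14 and 0.068 above the background level, so their likeness concerns values near it.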

How the data were processed

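Biotin-labelled cRNA from 3 shTFII-I and 3 shCT samples was put on Illumina bead arrays, according to the labels' protocols. The authors deposited log2 intensities for 45281 probes. From the values, these had been quantile normalized between arrays (sorted columns differ by at most 0.0012). Their floor was read here as background that had not been subtracted, which the values alone do not settle. The submitters' processing notes name limma, and how background and dim probes were handled is not given in the sources used here. Another deposited table has 12 columns of per-sample values with headings that match no label, and it was not used.

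Gene names came from the platform annotation (34885 probes with 1 gene symbol, 18 with several, 10378 with none), and 34807 were updated by Entrez ID to symbols of the RefSeq table of GRCm38.p6. The background centre was the mode of all values, 6.45; values below it were mirrored. Probes above the level of 6.61 on at least 3 arrays, 12149 in all, were fitted with limma 3.58.1 in R 4.3.3 (lmFit, eBayes, constant prior variance), with Benjamini-Hochberg adjustment over all of them. Other probes have differences from the same model on the whole table, with no test. The number of arrays limits the precision: a 95% interval reached 0.377 log2 units to either side of a difference, as a median over probes. The fit was run on simulated data drawn from limma's own model with large added differences. This does not show how it does with dim probes or with differences as small as those reported here.

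Every probe of the 10 genes was described, some dim ones without their identifier. At most 2 genes of each list were named, those with the smallest p. Genes and lists were chosen with earlier results of these data known. Alternatives were other filters and background levels, another prior, array weights, normexp (offset 16), 1 probe per gene, a looser threshold, each array left out and a block for the replicate number; the mean of the probes of a gene was added after the data were seen.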

Additional observations from a re-analysis of the deposited data

How the results depend on the processing

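No probe of the 10 genes passed an adjusted p of 0.05 in limma under any alternative, and none passed the looser threshold of 0.1. Over all probes the count of 0 became 14 with limma's robust prior with an intensity trend and 9 with normexp, none of them probes of these genes. It was 0 under the other alternatives run, each array left out included. The 1 probe at an unadjusted p under 0.05, Gtf2ird1 ILMN_3096468, was not under it with that prior, with probes above background on all 6 arrays only, with the replicate number as a block, with the mean of the probes, or without any 1 array other than shTFII-I replicate 2. The count over the 10 genes was between 0 and 2 when each array was dropped in turn, and the probes counted then were Gtf2ird1 ILMN_3096468 and Eif4h without shTFII-I replicate 2, Rfc2 ILMN_2749487 without shCT replicate 1, and Gtf2ird2 ILMN_1242837 and Rfc2 ILMN_2749484 without shCT replicate 2. In the fit with the replicate block 0 of all probes passed, with 833 against 790 at an unadjusted p under 0.05, and the Gtf2ird1 probe had an adjusted p of 0.756. Same-numbered arrays deviated together with an r of -0.027, 0.003 and 0.0888, and arrays of different number with an r of -0.117 to 0.136. With so few arrays these values cannot show if a number stands for a shared culture or batch, and the labels do not say. Signs of small differences turned when 1 array was left out: Bcl7b ILMN_2685390 ran from -0.097 to 0.033, Eif4h from -0.46 to 0.078, Ncf1 ILMN_2829457 from -0.12 to 0.15, Rfc2 ILMN_2424690 from -0.080 to 0.30 and Rfc2 ILMN_2894497 from -0.40 to 0.010. The count of probes at an unadjusted p under 0.05 was 2235 with no filter, 479 with 1 probe per gene and 500 with the mean of the probes, as other numbers were tested. The floor of the deposited values, taken as background, limits what can be said of dim probes, Gtf2i and Baz1b above all.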
